A study of Homo sapiens with 4 samples.

Results

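The Polycomb and H3K27 modifying machinery is the set of proteins that place, remove and read methylation on lysine 27 of histone H3 (H3K27), together with those that place or remove ubiquitin on histone H2A and those that acetylate H3K27. A list of 37 genes was drawn up from these roles, and it contains KDM6B, the gene that was targeted. Of the 37, 33 genes were measured, out of 19775 genes on the array. RNF2, CBX8 and BAP1 had no probe set of their own symbol alone, and BMI1 was on a probe set that names several genes, so these 4 have no value here.

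All arrays were of HuH7, a cell line from a human hepatocellular carcinoma, carrying either the wild-type KDM6B gene or a KDM6B knockout made with CRISPR/Cas9. There were 2 arrays per genotype. The knockout rests on 1 guide sequence and on subclones grown from limiting dilution, and whether the knockout arrays came from 1 subclone or from different ones is not stated. The labels also do not say whether arrays of a genotype came from separate cultures, so p-values measure only the spread between these arrays, which may be technical, and clone and knockout cannot be told apart.

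Polycomb repressive complex 2 (PRC2) methylates H3K27 through its catalytic subunit EZH1 or EZH2, and trimethylated H3K27 marks silenced genes, among them developmental regulators. Polycomb repressive complex 1 (PRC1) contains a CBX protein that binds the methylated lysine in its canonical forms and a ubiquitin ligase, RING1 or RNF2, that modifies H2A. KDM6A and KDM6B are the demethylases that remove the mark, BAP1 with an ASXL partner removes ubiquitin from H2A, and CREBBP and EP300 acetylate the same H3 lysine.

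The sequence that the knockout was designed on, and the promoters of 3 members whose probe sets all lay on one side of 0, are given first because the results below refer to these genes. The guide is 20 bases long, and its capitals mark the 10 bases at the 3′ end, next to where the protospacer-adjacent motif would lie in the genome. Its position in the genome was not determined here, and it was in 0 of the promoter windows. The promoter windows run from 250 bases before to 50 after a RefSeq transcript start (GRCh38.p14). ASXL1 is at chr20:32358081-32358380 on the plus strand, MTF2 at chr1:93079033-93079332 on the plus strand and KDM6B at chr17:7833967-7834266 on the plus strand. Capitals in the windows mark the letters of a YY1 motif (AANATGGC) or an E2F motif (TTTGGCGC, TTTCCCGC, TTTCGCGC or TTTGCCGC), on either strand. E2F factors drive genes of the cell cycle, and YY1 is the human relative of a fly protein that recruits Polycomb.
KDM6B guide: cacagcgcccTTCGATACGG
ASXL1 promoter: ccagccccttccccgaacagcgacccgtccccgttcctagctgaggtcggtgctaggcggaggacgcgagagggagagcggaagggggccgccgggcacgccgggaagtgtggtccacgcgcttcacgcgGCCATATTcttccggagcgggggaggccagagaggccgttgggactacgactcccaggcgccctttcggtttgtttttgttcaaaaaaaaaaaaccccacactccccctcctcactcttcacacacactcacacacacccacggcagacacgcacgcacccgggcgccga
MTF2 promoter: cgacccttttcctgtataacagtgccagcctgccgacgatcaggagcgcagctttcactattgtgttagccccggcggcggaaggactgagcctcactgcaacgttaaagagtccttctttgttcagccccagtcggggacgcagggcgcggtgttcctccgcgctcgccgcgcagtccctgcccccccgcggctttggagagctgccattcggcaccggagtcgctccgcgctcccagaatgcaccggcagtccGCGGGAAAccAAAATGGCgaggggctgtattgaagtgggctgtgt
KDM6B promoter: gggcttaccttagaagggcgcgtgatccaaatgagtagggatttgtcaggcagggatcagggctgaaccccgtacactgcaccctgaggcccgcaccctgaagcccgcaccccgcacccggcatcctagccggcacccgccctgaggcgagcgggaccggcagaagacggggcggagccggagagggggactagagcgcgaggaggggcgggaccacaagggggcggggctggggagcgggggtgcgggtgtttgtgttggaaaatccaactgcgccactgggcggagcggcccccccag
The ASXL1 window holds the YY1 letters, the MTF2 window holds both motifs and this KDM6B window holds neither. SUZ12, with its probe sets all above 0, has the E2F letters and no YY1 letters. CREBBP, with its probe sets all below 0, has the YY1 letters in a window, and PCGF5, also all below 0, has neither motif.

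RefSeq promoter windows were found for 32 of the listed genes, 48 windows in all, and several windows of 1 gene overlap. The members' windows held a median of 33.5 CG dinucleotides in 300 bases, against 14 in all promoter windows and 21 in those of protein coding genes. The E2F letters were in 6 of the 48 windows (12.5%), against 3.31% of all windows and 4.10% of those of protein coding genes. The YY1 letters were in 12 windows (25%), against 6.58% and 7.37%. Overlapping ASXL1 windows hold the same YY1 letters, so a site can be counted more than once. All the E2F letters contain CG, and windows of like CG content were not compared. These matches describe the letters only, and whether any factor was bound was not measured.

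Array medians lay between 4.96 and 5.05 on the log2 scale, and the correlation of replicate arrays over probe sets was 0.992 (wild type) and 0.994 (knockout). Each gene was read from its brightest probe set, and a gene was called when its adjusted p in the limma fit over all genes was under 0.05. Over all genes 1399 (7.07%) were called, 620 up (3.14%) and 779 down (3.94%) in the knockout. Where the KDM6B probe sets lie relative to the cut was not determined, so none of these values checks the knockout itself.

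Among the 33 measured members 1 was called up, ASXL1, and 0 were called down. This is below the share over all genes and below the 12.1% called among genes at or above the median brightness, where all 33 members lay. An unadjusted p under 0.05 was found for 6 members, 4 higher and 2 lower, against 20.05% of all genes. Both knockout arrays read above both wild-type arrays for 10 members and below them for 9, where the shares over all genes were 22.4% and 23.5%. The groups overlapped for the other 14. The median log2 difference (knockout minus wild type, as in all differences that follow) was 0.03 over the members and 0.01 over all genes. The median size of the difference, sign aside, was 0.14 for the members and 0.20 for genes at or above the median brightness. The 95% interval of the difference lay within 1 log2 unit on either side of 0 for 32 of the 33 members, as it did for 91.3% of all genes. Uncalled members differed by -0.32 to 0.43, and the bounds of their intervals ran from -0.63 to 0.69. A change of 2-fold or more in the signal of the brightest probe set is outside those intervals. Smaller changes are inside many of them, so a member without a call is not shown to be unchanged. Other probe sets of some uncalled members had intervals that include 2-fold, such as -1.68 to -0.02 for 1 of PCGF5 and -0.88 to 1.07 for 1 of KDM6A. Since whole cultures were measured, fewer cells with a transcript and less transcript per cell cannot be told apart.

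KDM6B, the targeted demethylase (chr17:7834217-7854796), had log2 values of 8.46 and 8.27 in wild type, against 7.95 and 8.14 in knockout. Both knockout arrays lay below both wild-type arrays, but the gap between the groups was smaller than the distance between replicates. The difference was -0.32 (SE 0.12, adjusted p = 0.235, n = 2 per genotype), which was not a call, and its interval ran from -0.63 to -0.01. All 5 KDM6B probe sets read lower in the knockout on average, by -0.21 to -0.40, and none was called. A guide can alter the coding sequence without removing the transcript, so the level of this transcript does not check the genotype. Neighbours were taken from genes at or above the median brightness, of which 12.1% were called, up or down. Of the 10 such genes before KDM6B on the chromosome, 4 were called down (SENP3, MPDU1, FXR2 and SAT2) with a median difference of -0.32. The 10 such genes after it had a median of 0.11 and 0 calls by limma. Whether the neighbourhood has a part in the KDM6B value was not tested.

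KDM6A, the X-linked demethylase of the same family, read 8.74 and 8.37 in wild type, against 8.75 and 8.76 in knockout. The knockout arrays were higher than both wild-type arrays, but their margin over wild-type replicate 1 was far smaller than the distance between the wild-type arrays. The difference was 0.20 (SE 0.14, adjusted p = 0.555), and it was not called. Of the 4 KDM6A probe sets 3 lay above 0. The one below 0, at -0.09, had a mean log2 value of 2.35, under the lowest 25th percentile of any array (3.53).

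KDM6A works in a complex with the H3K4 methyltransferases KMT2C and KMT2D, which also holds PAXIP1 and NCOA6. PAXIP1 read 9.53 and 9.43 against 9.20 and 9.22, a difference of -0.27 (adjusted p = 0.168) that was not called on its single probe set. KMT2D differed by -0.20 with no overlap between groups, and NCOA6 by -0.13. The mean of all KMT2D probe sets differed by -0.02. The 20 genes around NCOA6 at or above the median brightness had a median difference of -0.21, further from 0 than NCOA6 itself. KMT2C, at 0.11, had 1 wild-type array at 7.80 and the other at 8.35, on both sides of the knockout arrays.

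Of the PRC2 core, EZH2, the main catalytic subunit of dividing cells, read 9.39 and 9.11 in wild type, against 9.15 and 9.55 in knockout. The groups overlapped, and the difference of 0.10 (SE 0.17, adjusted p = 0.845) was smaller than the distance between replicates of either genotype. EZH1, the alternative catalytic subunit, read 7.07 and 6.91 against 7.21 and 7.28, higher in both knockout arrays. Its difference of 0.26 (adjusted p = 0.325) was not called, and 4 of its 5 probe sets lay above 0. EED, which binds the trimethylated lysine, differed by 0.03 and SUZ12, the scaffold subunit, by 0.07. The histone-binding subunits RBBP4 and RBBP7 differed by 0.06 and -0.02. None of these 4 separated the groups.

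The accessory subunits decide where PRC2 goes and how active it is. MTF2, a Polycomb-like subunit that takes PRC2 to CG-rich DNA, read 10.04 and 10.18 in wild type, against 10.61 and 10.47 in knockout. Both knockout arrays lay above both wild-type arrays by more than the distance between replicates. The difference was 0.43 (SE 0.10, adjusted p = 0.066), which misses the threshold, with an interval of 0.18 to 0.68. All 5 MTF2 probe sets lay above 0, by 0.30 to 0.54. When genes dimmer than the median were left out before the fit, MTF2 was called (adjusted p = 0.0496). The Polycomb-like relatives of MTF2 lay the other way without a call, PHF1 at -0.11 and PHF19 at -0.17. JARID2, which joins PRC2 at its targets, differed by 0.22 (adjusted p = 0.320), with 2 of 3 probe sets above 0 and the third, a dimmer one, at -0.28. AEBP2, a subunit that stimulates PRC2, read 9.18 and 8.58 against 8.68 and 9.20, the widest spread within each genotype among the accessory subunits.

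**Figure D1:**
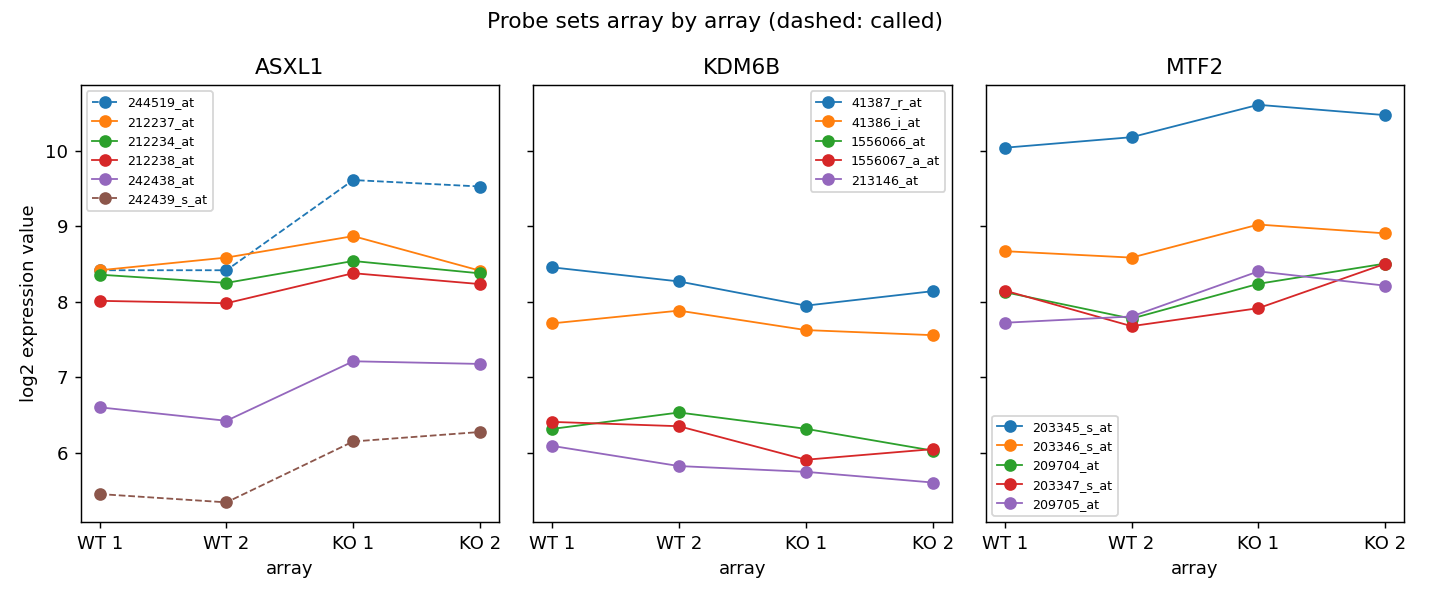
Log2 expression of every ASXL1, KDM6B and MTF2 probe set in the 2 wild-type and 2 knockout arrays, 1 panel per gene and 1 column per probe set. ASXL1 and MTF2 probe sets read higher on average in the knockout and KDM6B probe sets lower, with ASXL1 differences from 0.14 to 1.15.

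PRC1 is built on a ring of 1 RING1 or RNF2 ligase and 1 PCGF subunit. RING1 differed by 0.09 (adjusted p = 0.684). PCGF3, a subunit of a variant PRC1 without CBX, read 8.68 and 8.62 in wild type, against 9.01 and 8.98 in knockout. Those groups were far apart for their spread, yet the difference of 0.35 (adjusted p = 0.093) was not called and 4 of 5 PCGF3 probe sets lay below 0. The mean of all its probe sets differed by -0.09, so PCGF3 has no settled direction. PCGF5, its closest relative in function, read 8.25 and 8.42 against 8.13 and 7.90. Its difference was -0.32 (adjusted p = 0.253), and all 5 PCGF5 probe sets lay below 0, by -0.06 to -0.87, none of them called. PCGF2, of canonical PRC1, differed by 0.14 with no overlap, and PCGF6, known from germ cell gene silencing, by 0.06. PCGF1, the subunit of the BCOR complex, differed by -0.04 and its arrays spread widest of the PCGF genes, from 7.24 to 7.88 within wild type. Its dimmer probe set differed by -0.57 (interval -0.98 to -0.17) with no overlap, and was not called.

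The CBX proteins are the readers of the methyl mark and the PHC proteins link PRC1 complexes to each other. CBX2 read 8.56 and 8.64 in wild type, against 9.06 and 8.93 in knockout, higher in both knockout arrays. The difference of 0.40 (SE 0.10, adjusted p = 0.082) was not called, and 3 of 4 CBX2 probe sets lay above 0. CBX6 and CBX7 lay the other way, at -0.22 and -0.16, each with both knockout arrays below both wild-type arrays. Both genes are neighbours on chromosome 22 and share the genes around them at or above the median brightness. PHC2 read 10.04 and 10.28 against 9.93 and 9.88, a difference of -0.26 (adjusted p = 0.265), while PHC1 and PHC3 differed by 0.06 and 0.03. A dimmer PHC1 probe set differed by 0.42 (interval 0.11 to 0.74). A dimmer PHC3 probe set differed by -0.75 (interval -1.38 to -0.12), and neither was called.

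ASXL1, a partner of the H2A deubiquitinase BAP1 (chr20:32358331-32439319), was the member called up. Its brightest probe set read 8.42 in both wild-type arrays, against 9.61 and 9.53 with the knockout. The gap between the groups was far wider than the distance between the knockout arrays. The difference was 1.15 (SE 0.09, adjusted p = 0.0041, interval 0.92 to 1.38), a 2.22-fold higher signal. The wild-type values of this probe set are identical to every deposited digit, which gives a wild-type SD of 0. The same is true of 93 genes in all (0.470%). The limma fit draws this spread towards that of other genes, but the cause of the identity was not tested. The other ASXL1 probe sets do not share it. All 6 lay above 0, at 1.15, 0.81, 0.68, 0.31, 0.15 and 0.14, and 2 of them were called (adjusted p = 0.046 for the probe set at 0.81). The probe sets at 0.81 and 0.68 were the dimmest, with mean log2 values of 5.81 and 6.86. Those closest in brightness to the brightest one, with means of 8.57, 8.38 and 8.15, differed by 0.14, 0.15 and 0.31 without a call. The mean of the 6 differed by 0.54 and was called (adjusted p = 0.027). In the fit over genes, the call on ASXL1 held without wild-type replicate 1. That call was lost without wild-type replicate 2, knockout replicate 1 or knockout replicate 2, while the difference stayed between 1.11 and 1.19. In the fit over probe sets no ASXL1 probe set kept its call when any array was left out. ASXL2, the paralog, read 8.15 and 7.99 against 8.13 and 8.04, a difference of 0.02.

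The size of the ASXL1 difference depends on the probe set. The brightest one differed from the mean of the other ASXL1 probe sets by 0.73 (SE 0.16), but that contrast was not called among 31839 probe sets tested (adjusted p = 0.211). A test of unequal probe sets within a gene, limma's diffSplice, had been run before it and did call ASXL1 (adjusted p = 0.0318). It was set aside because too many of its calls on simulated data were false. The contrast that replaced it found none of the simulated differences of about this size, so its lack of a call says little, and whether the ASXL1 probe sets changed unequally is not settled. ASXL1 also lies among genes that rose. Of 20 genes around it at or above the median brightness 5 were called up (ID1, BCL2L1, PLAGL2, POFUT1 and NOL4L) and 0 down. Over all genes of that brightness 12.1% were called, up or down. The median difference was 0.32 for the 10 before ASXL1 and 0.12 for the 10 after. The part of this neighbourhood in the ASXL1 value was not tested. Called neighbours were not particular to ASXL1 and KDM6B. Of 20 such genes around PHF19, 3 were called up and 5 down. Their median difference was -0.24, further from 0 than PHF19 itself. Around PCGF5, 2 were called up and 5 down, with a median of -0.02.

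CREBBP and EP300, the acetylases that place the acetyl group on H3K27, differed by -0.15 and 0.01, and both had overlapping groups. All 4 CREBBP probe sets lay below 0, by -0.01 to -0.19, none called.

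Probe sets of a gene often disagreed. The 33 members had 111 probe sets, 57 higher and 54 lower, and 2 were called, both of ASXL1, against 2.91% of all probe sets. Of 19 members with 3 or more probe sets, 6 had all of them on one side of 0, against 37.4% of such genes. ASXL1, MTF2 and SUZ12 lay above 0 in this way and KDM6B, PCGF5 and CREBBP below. SUZ12 was carried by its bright probe set at 0.07 and by much dimmer ones at 0.37 and 0.50.

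Replicate spread limits these comparisons and had a shape of its own. The median replicate SD of the members was 0.099 in wild type and 0.084 in knockout, against 0.12 and 0.11 over all genes. For 29 of the 33 members the difference between replicates (replicate 2 minus replicate 1) had opposite signs in the 2 genotypes, as it did for 68.9% of all genes. In 15 members wild-type replicate 1 and knockout replicate 2 were both the higher array, and in 14 both were the lower. These differences correlated at -0.83 over the 33 members and -0.55 over all genes. The genes of a correlation share the 4 arrays and are no independent points. EZH2, EED, SUZ12, RBBP4, RBBP7, AEBP2, PHF1, KMT2C, PCGF1, PHC3, ASXL2, CREBBP and EP300 differed less between genotypes than between the replicates of either. The cause was not tested.

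**Figure D2:**
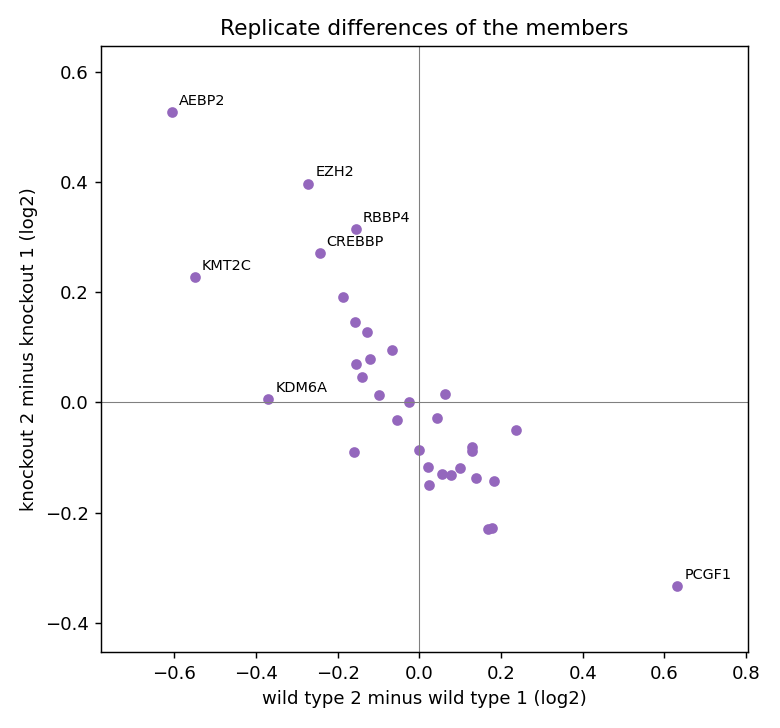
Difference between replicates (replicate 2 minus replicate 1, log2) in wild type on the horizontal axis and in knockout on the vertical axis, 1 point per member. Most points lie in the upper left or lower right of the plot, 29 of the 33 having opposite signs.

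Genes that work beside the members were read from lists of the same kind. Of 38 other Polycomb and H2A ubiquitin genes 1 was called up and 2 down, with a median difference of -0.07. ASXL3, the third ASXL gene, rose from 4.96 ± 0.12 to 6.53 ± 0.13 (SD, n = 2), a difference of 1.56 at an adjusted p of 0.0072, and 2 of the 4 ASXL3 probe sets were called. The other ASXL3 probe sets differed by -0.04 and 0.04, and the mean of all 4 by 0.80 (adjusted p = 0.0167). MBD5, a methyl-CpG-binding domain protein that associates with the BAP1 complex, fell by 0.94 on the log2 scale (adjusted p = 0.0136), but its difference was -0.12 over all its probe sets. WDR5, a subunit shared by H3K4 methyltransferase complexes and a variant PRC1, fell by 0.49 (adjusted p = 0.0408), and its call was lost over all probe sets (-0.27). Of 12 other genes of the H3K4 methyltransferase complexes and of 15 measured acetylation genes, 0 were called by limma in either direction.

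Developmental genes that Polycomb silences in many cell types had a median difference of 0.02, with 22 above 0 and 20 below. Of 42 measured 5 were called up and 0 down, where 3.14% of all genes were called up. The list was chosen with earlier results of these data known, so setting its share beside that of all genes is no test. MEIS1 had the lowest difference, -0.65, followed by GATA3 (-0.56) and TBX3 (-0.54), all without a call. CDKN2B, an inhibitor of the kinases CDK4 and CDK6, differed by 1.32 (adjusted p = 0.0094). The homeodomain gene LHX2 differed by 1.07 (adjusted p = 0.0104), the T-box gene TBX2 by 0.74, the intestinal regulator CDX2 by 0.70 and the TALE homeobox gene MEIS2 by 0.49, the last pair being named after their values were seen. Among 28 HOX genes 4 were called up and 0 down, with a median of 0.19, beside the same 3.14% of all genes called up. This is no test either, and these calls are not among those followed through other settings below. H3K27 methylation was not measured, and these genes are listed by their known regulation only, not as silent in HuH7. Wild-type means were 9.70 for MEIS2, 7.41 for CDX2, 7.40 for LHX2, 6.66 for TBX2 and 5.51 for CDKN2B. The median of all gene means over the 4 arrays was 6.19. Among 23 cell cycle genes CCNE1, the cyclin of the G1 to S transition, was called up (0.90, adjusted p = 0.0123) and none was called down.

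Of these 9 list genes and 4 cell type markers that were called, ASXL3 alone held without wild-type replicate 1, and 0 of the 13 held when any other array was left out or with the replicate number as a block. With the mean of all probe sets of a gene 7 of the 13 kept their call, and WDR5, MBD5, CCNE1, TBX2, CDX2 and PECAM1 lost it. Without the intensity trend 5 kept it (ASXL3, CCNE1, CDKN2B, LHX2 and MBD5). Hepatocyte markers read between 10.56 and 13.85 as means over the 4 arrays, ALB being the highest. Of 8 measured, SERPINA1 fell by 0.49 and FGB fell by 0.63, and both were called. The others were not called, at 0.09 (ALB), 0.02 (TF), 0.01 (TTR), -0.02 (APOA1), -0.06 (AFP) and -0.59 (APOA2). Fibroblast and stellate markers had 0 calls of 8 (COL1A1, the brightest, differed by 0.13). Endothelial markers had 1 of 6 (PECAM1, -0.88) and leukocyte markers 1 of 4 (LYZ, -1.58). TEK, also an endothelial marker, lay the other way at 0.63 without a call. The part of these markers in the members' values was not tested.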

How the data were processed

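The deposited values are log2 expression values of Affymetrix Human Genome U133 Plus 2.0 arrays, which the authors made with RMA and the affy package, per the submitters' processing notes, with no version given. Since RMA makes the distributions of arrays alike, it would remove a shift shared by most genes. The 4 arrays were grouped by genotype from their titles. Probe sets were named through the platform annotation. Of 54613 probe sets 41091 had 1 gene symbol, and each of 19775 genes was read from its brightest one.

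Knockout was compared with wild type by two-sided moderated tests of limma 3.58.1 (R 4.3.3), whose eBayes step used an intensity trend. P-values were adjusted by Benjamini-Hochberg over all genes or all probe sets, with calls at an adjusted p under 0.05. There were 2 residual degrees of freedom, and 3.62 came from the prior. With 2 arrays a group the smallest p of an exact permutation test is 0.333, and no such test was made. Scripts were tested on simulated data. No detection calls were used, and precision is limited by the number of arrays.

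The members and lists were chosen with earlier results of these data known. The text names every member, up to 3 called genes in each direction of each other list, and of each marker list the brightest gene and any called. Other genes it names, and the array values of members beyond ASXL1, KDM6A, KDM6B, EZH1 and EZH2, were chosen after seeing the data. The test of unequal probe sets, the crossed pairing and the promoter letters were added after seeing the data. Replicate numbers come from titles that do not say what they share.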

Additional observations from a re-analysis of the deposited data

How the results depend on the processing

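Of the 531 alternative values classed against their main value, 403 were classed the same, 87 weaker, 35 reversed and 6 stronger. A count or median classed the same could still move, and the members' median changed sign in some settings. The number of genes called, 1399, was 783 with no trend on intensity, 826 without x, s and a probe sets, 2236 at an adjusted p under 0.10, and 37 to 192 with an array left out. Probe sets called, 1587, became 641 without the trend, 2954 at 0.10 and 0 to 82 with an array left out. Members called up, 1, were 2 without genes dimmer than the median, 4 at 0.10 (ASXL1, MTF2, CBX2 and PCGF3) and 0 to 1 with an array left out. Member probe sets called, 2, were 1 without the trend, 1 with arrays centred on the median, 4 at 0.10 and 0 with any array left out. The median difference of the members, 0.030, was 0.084 with quantile normalization repeated and -0.030 without x, s and a probe sets. It was also below 0 with arrays centred on the median (-0.00031) and over all probe sets of a gene (-0.018). Without wild-type replicate 2 it was -0.019, and without knockout replicate 2 it was -0.010.

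With the replicate number as a block 175 genes and 77 probe sets were called, 0 of them member probe sets, and ASXL1 kept its call as a gene (adjusted p = 0.0493). The deviations of arrays with the same number correlated below 0, and whether the numbers pair the samples is not stated. Crossed pairing was added after seeing these deviations, so it was fitted to the same values and its calls are no support. It called 3662 of 19775 genes and 7 of the 33 members, 4 up and 3 down (KDM6B at -0.32, adjusted p = 0.0379). It also called 4349 probe sets, 9 of them of the members.

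Differences that changed sign were all uncalled. With quantile normalization repeated RBBP7 was 0.0062 and PCGF1 0.022. With arrays centred on the median EED was -0.0052, PHC3 -0.00031, ASXL2 -0.012 and EP300 -0.018. Over all probe sets of a gene EED was -0.10, PCGF3 -0.086, PHC3 -0.24, ASXL2 -0.033 and EP300 -0.11. Without x, s and a probe sets, which leaves KDM6A, EED and JARID2 with dim probe sets, KDM6A was -0.095, EED -0.22, RBBP4 -0.018 and JARID2 -0.28. With an array left out KMT2C ran from -0.17 to 0.38, EZH2 ran from -0.10 to 0.30, EED ran from -0.038 to 0.090, RBBP4 ran from -0.10 to 0.22, RBBP7 ran from -0.074 to 0.043, AEBP2 ran from -0.24 to 0.36, PCGF1 ran from -0.36 to 0.27, PCGF6 ran from -0.011 to 0.14, PHC3 ran from -0.017 to 0.078, ASXL2 ran from -0.060 to 0.10 and EP300 ran from -0.058 to 0.083. The cause of these changes was not tested.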
